A study of Mus musculus with 9 samples.

Results

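The response described here is the one that 2 chemicals shared when each was put on mouse ear skin. Both sets of treated arrays, 6 in all, were taken as one group and set against the 3 vehicle arrays, so the comparison used 9 of the 9 arrays of the series. The mice were of the C57BL/6 strain, and ear skin was sampled 6 h after topical application. DNFB (3 arrays) is labelled a chemical allergen and BAC (3 arrays) a skin irritant; both were put on the right ear. The control (3 arrays) was the vehicle, acetone/olive oil, which went on the left ear, so the side of the ear cannot be told apart from treatment. The sources used here give no dose, age or sex, and the labels do not say whether replicates came from separate animals. The p-values thus rest on the spread between these arrays, and that spread may be technical.

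Skin that is injured by a chemical is known to answer within minutes to hours with immediate early genes, which need no new protein to be transcribed. Many of them encode transcription factors of the AP-1, EGR and NR4A families. Their targets include cytokines of the IL-6 family, chemokines that call in neutrophils, and enzymes that remodel the matrix around cells. The upper layers of the epidermis meanwhile carry the barrier, which is built from cornified envelope proteins, ceramides, corneodesmosomes and the proteases that shed dead cells. DNFB is a reactive hapten that binds proteins and is used to sensitise skin, whereas BAC is the name the labels give to the irritant, so the comparison asked which part of the response did not separate the allergen from the irritant.

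Each array gave a MAS5 signal for each of 45101 probe sets, and arrays carry no read depth, so their number limits the precision. The trimmed mean signal was 250.001 on each array and the median signal ranged from 71.2 to 86.3. Signals were compared as log2(signal + 16), which understates the changes of dim genes, and changes are given on that scale with the standard error (SE) of limma, a linear model fitted across 14122 tested genes. Keratinocyte and dermal genes were bright in the vehicle arrays, with signals of 9483, 10394 and 9544 for the basal keratin Krt14, 21085, 25698 and 18972 for the suprabasal keratin Krt10 and 7037, 5363 and 5566 for the collagen Col1a1. One measure of RNA quality moved with treatment. The 3' over 5' ratio of the actin control was 1.20 ± 0.064 (SD, n = 6) in the treated and 1.07 ± 0.027 (n = 3) in the vehicle arrays (two-sided exact permutation test, p = 0.0357 over 84 splits). With 1 array left out in turn the exact p ran from 0.0179 to 0.0714 and missed the threshold in 7 of 9 cases, all but those without vehicle replicate 3 or DNFB replicate 1. The Gapdh ratio was 0.986 ± 0.185 and 0.868 ± 0.012 (exact p = 0.357). The part of RNA quality in the results below was not tested.

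Of the 14122 tested genes, 1445 (10.2%) were called at a Benjamini-Hochberg adjusted p below 0.05, 685 (4.85%) higher and 760 (5.38%) lower in the 6 treated arrays. All 6 treated arrays lay above all 3 vehicle arrays in 1005 genes (7.12%) and below them in 1286 (9.11%). Among the genes called higher 633 did not overlap between the groups, and 223 of those also changed at least 2-fold. The 223 were then sorted by how alike the compounds were. In 91 (0.644% of the tested genes) the log2 changes after DNFB and after BAC differed by at most 0.5, with a 95% interval of the difference inside -1 to 1. These are called shared rises here. In 90 the rise was larger after BAC by more than 0.5 and in 20 larger after DNFB, while 22 were within 0.5 but with a wider interval. Among the genes called lower 711 did not overlap and 78 of those fell at least 2-fold. Of the 78, 44 were shared falls by the same limits (0.312% of the tested genes), 17 fell further after DNFB, 7 fell further after BAC and 10 had too wide an interval. With 1 array left out in turn 71 to 81 of the 91 rises (71 without BAC replicate 1) and 33 to 39 of the 44 falls (33 without DNFB replicate 2) still met every limit, and with averaged probe sets 60 and 32. In 8 of the shared rises, and in 33 of the 685 genes called higher, all 3 vehicle arrays were at or below the 40th percentile of their array, so these genes passed the filter on low values through the treated arrays. A shared gene is thus defined by its measured values, and the counts are a description, not a test of likeness.

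The 135 shared genes split unevenly by level. The shared rises started near the middle of the tested genes, with a median vehicle signal of 301, and ended high, at the 81.1 percentile of level in the treated arrays. The shared falls started high, at a median vehicle signal of 539 and the 70.0 percentile, and ended at the 48.3 percentile. All genes called higher went from a median percentile of 63.9 to 80.3, and all called lower from 76.8 to 64.8. The 2-fold limit also favours a wide move in level. Median pooled changes of the shared rises and falls were 1.27 and -1.14, beside -0.02 over all tested genes. Each compound was also compared with the vehicle on its own, in a fit with a mean per treatment. There 955 genes were higher (6.76%) and 1000 lower (7.08%) after DNFB, and 930 higher (6.59%) and 1079 lower (7.64%) after BAC. Of the 91 shared rises 88 were called after DNFB and 90 after BAC, and of the 44 shared falls 44 were called after each. These comparisons use the same 3 vehicle arrays, so they are not independent of each other. The limits that define a shared gene also favour such calls, so these counts are no test of likeness. DNFB and BAC were then compared directly, which uses no vehicle array. That comparison called 961 genes (6.80%), among them 3 of the shared rises and 0 of the shared falls by limma (3394 genes had an unadjusted p below 0.05 in the pooled comparison). Few shared genes could pass there, because the class admits only differences of at most 0.5. The 3 were Ccnl1, which encodes a cyclin linked to splicing (0.46, DNFB minus BAC), the ubiquitin ligase Rnf19b (-0.45) and the zinc finger protein Zfand5 (0.49). Zfand5 lost its pooled call when its probe sets were averaged (0.50, adjusted p = 0.0647).

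**Figure D1:**
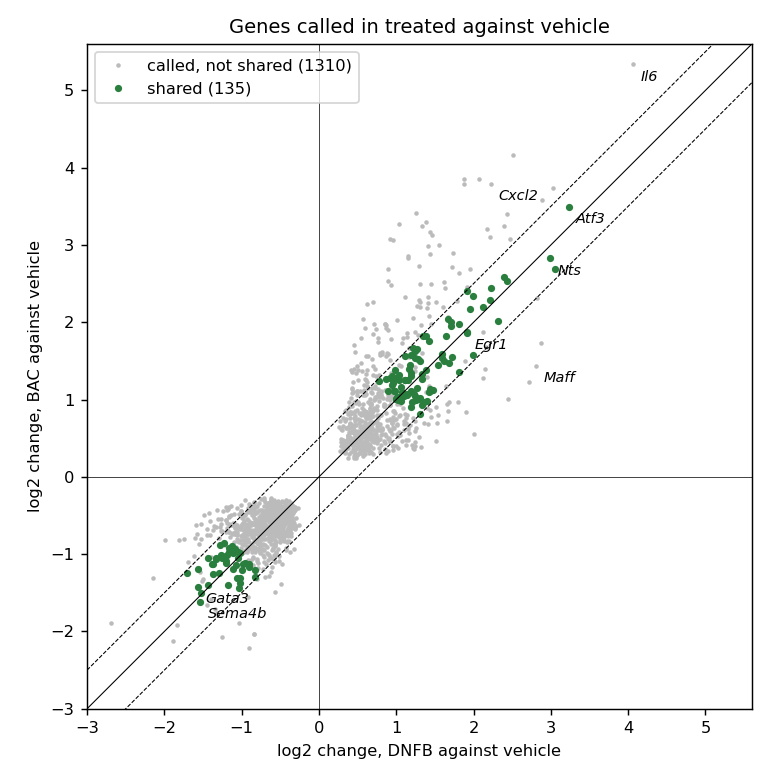
Log2 change after DNFB against the vehicle (horizontal) and after BAC against the vehicle (vertical) for the 1445 genes called in the pooled comparison. Green points are the 135 shared genes, grey points the 1310 others, the solid line marks equal change and the dashed lines a difference of 0.5; Atf3 lies near the line at 3.23 and 3.49, and Il6 above it at 4.07 and 5.34.

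Transcription factors of the immediate early response were among the largest shared rises. Atf3 (Entrez gene 11910), a stress-induced bZIP factor that pairs with AP-1 proteins, had signals of 710.1, 459 and 582 in the vehicle arrays, 5366, 5618 and 5614 after DNFB and 6733, 6005 and 7215 after BAC. All 6 treated arrays lay far above the vehicle arrays, a pooled change of 3.36 ± 0.14 (adjusted p = 5.48e-09). The changes after the single compounds were 3.23 after DNFB and 3.49 after BAC, and the 95% interval of their difference ran from -0.54 to 0.022. Nr4a3, an orphan nuclear receptor of the NR4A family, had signals of 346, 324 and 242 in the vehicle arrays, 2635, 2557 and 2620.5 after DNFB and 1797, 2101 and 2180.4 after BAC. The DNFB arrays were the highest, and the pooled change was 2.87 ± 0.15 (3.05 after DNFB and 2.68 after BAC). It was 1.63 when a gene's probe sets were averaged. The other members of that family, Nr4a2 and Nr4a1, rose by 1.78 ± 0.21 and 1.73 ± 0.16. Egr1, a zinc finger factor induced by growth signals and injury, was already bright in the vehicle arrays, at 4345, 3362 and 3803, and reached 14102, 15907 and 13524 after DNFB and 14294, 12261 and 15435 after BAC. Its pooled change was 1.89 ± 0.11, and the interval of the difference between the compounds was -0.20 to 0.31.

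Of 16 tested genes of the AP-1 and related bZIP list, 11 were called higher (68.75%) and 0 lower, beside 4.85% and 5.38% of all tested genes. The median change was 1.24 against -0.02 over all tested genes. The 5 shared members were Atf3, Fosl1, Crem, Fos and Fosl2. Fosl1, which encodes the FOS-related protein FRA-1, had signals of 570.0, 678 and 545 in the vehicle arrays, 2724, 1826 and 2417 after DNFB and 2356, 2326 and 1994 after BAC (pooled change 1.89 ± 0.13). Fos itself rose by 1.28 ± 0.16, from 5055, 3129 and 4761 to 8961, 10413 and 9234 after DNFB and 12281, 9121 and 12391 after BAC. Vehicle replicate 2 was the lowest of the vehicle arrays for Fos, Egr1 and Atf3. Fosl2 rose by 1.17 ± 0.14 and Crem, a factor that binds cyclic AMP response elements, by 1.38 ± 0.20. The others of the 11 were Maff, Jun, Junb, Mafk, Fosb and Jdp2. Fosb lost its call in 8 of 19 settings, among them without vehicle replicates 2 and 3, DNFB replicates 2 and 3 and BAC replicate 1 (adjusted p from 0.0536 to 0.181), and Jdp2 without vehicle replicate 3 (adjusted p = 0.0826). The 5 members that did not pass were Mafg (0.37), Batf (-0.066), Batf3 (-0.28), Jund (-0.31) and Creb5 (-0.48). Mafg was called without DNFB replicate 2 (0.45, adjusted p = 0.0433) and with averaged probe sets (0.57, adjusted p = 0.024). The values of Batf and Jund changed sign in some settings.

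In the second list of immediate early genes 20 of 30 were called higher (66.7%) and 0 lower, beside 4.85% and 5.38% of all tested genes. The median was 1.08, and 10 were shared. Besides the NR4A genes and Egr1 these were Ier2 (1.59 ± 0.14), Csrnp1 (1.46 ± 0.15), Phlda1 (1.18 ± 0.13), Ier5 (1.16 ± 0.14), Trib1 (1.08 ± 0.17) and Plk2 (1.06 ± 0.17). Csrnp1 encodes a nuclear protein with transcription activity, Trib1 a pseudokinase and Plk2 a polo-like kinase. Csrnp1, Ier5 and Trib1 lost their calls when the probe sets of a gene were averaged, with changes of 0.73, 0.028 and 0.65. Another probe set of Ier5 changed by -1.34 (adjusted p = 0.288).

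**Figure D2:**
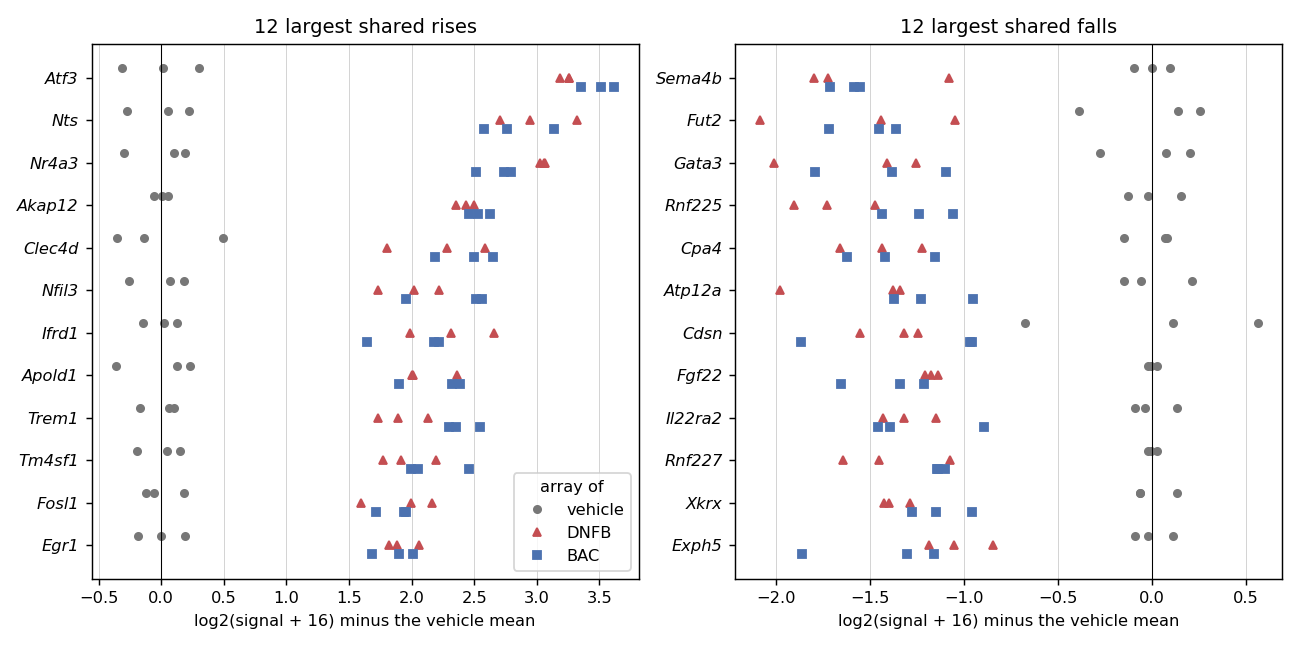
Log2(signal + 16) minus the vehicle mean (horizontal) for the 12 largest shared rises (left) and 12 largest shared falls (right), with 1 point per array: grey circles vehicle, red triangles DNFB, blue squares BAC. No treated point overlaps a vehicle point in any of the 24 genes, as the choice of genes requires, and DNFB and BAC points intermingle in most rows, for example Egr1 and Cpa4.

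Promoters were read to see what letters the shared genes carry near their starts. The RefSeq promoter table (GRCm38.p6; windows of 250 bases before and 50 after a start) held 95 of the 135 shared genes, and 6 motifs were searched on both strands. The AP-1 motif TGANTCA occurred in 13 of 81 windows of shared rises (16%) and 5 of 34 windows of shared falls (14.7%), beside 5.99% of the 14354 windows of tested genes and 7.81% of all 32851 windows. The STAT motif TTCNNNGAA occurred in 12.3% and 14.7%, beside 6.95% of the windows of tested genes. Windows of one gene can overlap, so a single site can be counted more than once. Counted by gene, the STAT motif occurred in 10.8% of shared rises and 16.7% of shared falls, beside 8.38% of tested genes. By gene TGANTCA occurred in 18.5% and 16.7%, beside 7.16%. The other motifs were found in the windows of shared rises and of tested genes at 4.94% and 2.72% (TGACGTCA, the cyclic AMP response element), 8.64% and 5.93% (GAANNTTC, heat shock), 2.47% and 1.65% (an NF-kB motif) and 1.23% and 1.33% (the CArG box). TGANTCA and TGACGTCA cannot share a match, whereas the STAT and heat shock motifs can overlap each other. A match is a description of letters and not a binding site. The 250 bases before the start are shown for 3 shared rises and 2 shared falls that hold TGANTCA. They are the neurotensin gene Nts (chr10:102490419-102490668, minus strand), Csrnp1 (chr9:119983024-119983273, minus strand), the calcineurin regulator Rcan1 (chr16:92400079-92400328, minus strand), the carboxypeptidase gene Cpa4 (chr6:30568119-30568368, plus strand) and the cytokine receptor gene Il20ra (chr10:19712337-19712586, plus strand). They are written 5′ to 3′ on the strand of the gene, and capitals mark TGANTCA and, in Rcan1, also TGACGTCA.
Nts: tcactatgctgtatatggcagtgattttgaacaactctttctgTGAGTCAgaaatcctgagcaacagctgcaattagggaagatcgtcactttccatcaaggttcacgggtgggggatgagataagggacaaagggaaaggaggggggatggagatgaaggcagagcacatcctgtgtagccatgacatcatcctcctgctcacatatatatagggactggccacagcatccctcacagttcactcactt
Csrnp1: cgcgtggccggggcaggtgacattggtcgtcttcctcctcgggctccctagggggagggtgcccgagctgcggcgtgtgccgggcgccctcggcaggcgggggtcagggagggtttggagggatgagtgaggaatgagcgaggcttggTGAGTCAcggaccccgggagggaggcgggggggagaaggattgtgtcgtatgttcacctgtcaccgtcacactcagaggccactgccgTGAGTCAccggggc
Rcan1: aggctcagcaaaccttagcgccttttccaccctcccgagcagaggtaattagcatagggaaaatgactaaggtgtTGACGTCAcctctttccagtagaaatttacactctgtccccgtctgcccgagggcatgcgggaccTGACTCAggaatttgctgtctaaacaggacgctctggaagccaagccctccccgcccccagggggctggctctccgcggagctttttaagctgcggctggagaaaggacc
Cpa4: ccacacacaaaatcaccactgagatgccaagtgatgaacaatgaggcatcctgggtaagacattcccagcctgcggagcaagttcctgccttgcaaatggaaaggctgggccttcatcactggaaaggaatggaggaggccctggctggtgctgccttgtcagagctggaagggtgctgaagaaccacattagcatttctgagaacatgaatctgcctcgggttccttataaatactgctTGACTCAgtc
Il20ra: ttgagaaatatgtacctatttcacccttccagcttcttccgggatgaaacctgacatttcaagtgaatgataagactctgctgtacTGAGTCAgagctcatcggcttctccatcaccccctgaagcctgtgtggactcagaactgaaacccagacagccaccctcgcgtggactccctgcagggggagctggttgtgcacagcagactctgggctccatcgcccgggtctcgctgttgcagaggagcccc

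The same letters thus stand before genes that rose and genes that fell. Nts, whose promoter is shown first, encodes neurotensin, a peptide that acts on nerves, gut and immune cells. Its signals were 111, 73.8 and 96.9 in the vehicle arrays, 820.3, 1067 and 692 after DNFB and 723, 632 and 942 after BAC, a change of 2.91 ± 0.17 (adjusted p = 3.82e-07), and the interval between the compounds was -0.24 to 0.56. Csrnp1, with 2 matches, went from 822, 619 and 553 to between 1513 and 2189 in the treated arrays. Rcan1 went from 1355, 1198 and 1419 to between 2377 and 3891 (change 1.07 ± 0.14), the highest value being BAC replicate 3. The 2 falls are described with the other receptors and proteases below.

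A group of shared rises encodes signalling and feedback proteins. Akap12, a scaffold for protein kinases A and C, had signals of 395, 383 and 364 in the vehicle arrays, 2229.9, 2123 and 2009 after DNFB and 2167, 2273 and 2427 after BAC. Its pooled change was 2.48 ± 0.10 (adjusted p = 5.48e-09), and the difference between the compounds was -0.11 with an interval of -0.33 to 0.11. Ifrd1, a transcriptional coregulator, rose by 2.17 ± 0.17 from signals of 2309, 2480.3 and 2058 to values between 7149 and 14438, with a median of 10517, in the 6 treated arrays. Nfkbiz, a nuclear IkB protein needed for a subset of NF-kB targets, was the shared member of its list and went from 926, 971 and 818 to between 2205 and 2737 (change 1.40 ± 0.11). In that list, NF-kB subunits and feedback, 4 of 15 genes were called higher (26.7%) and 0 lower, beside 4.85% and 5.38% of all tested genes. The count was 2 and 1 without vehicle replicates 1 and 3, 7 without DNFB replicate 2 and 10 in the fit with a mean per treatment. In that fit 4 of the 15 were higher after DNFB and 13 after BAC, beside 6.76% and 6.59% of all tested genes. Between the compounds 10 of 15 differed, beside 6.80% of all tested genes. Arid5a and Noct, which encode an mRNA-stabilising protein and a protein of the deadenylase family, rose by 1.89 ± 0.13 and 1.86 ± 0.16. The MAP kinase phosphatase list had 7 of 16 genes higher and 1 lower (4 higher without each vehicle array in turn, and 3 when probe sets were averaged). Its shared member, Dusp10, rose by 1.09 ± 0.22 but lost its call with averaged probe sets (0.53, adjusted p = 0.279). Dusp1, the early phosphatase of the same family, rose by 0.84 ± 0.17, less than 2-fold, with 0.60 after DNFB and 1.08 after BAC.

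Of 17 tested genes of the IL-6 family, its receptors and SOCS feedback, 9 were called higher (52.9%) and 1 lower (5.88%). Over all tested genes the shares were 4.85% and 5.38%. Of the 17, 2 were shared. Lif, the cytokine leukaemia inhibitory factor, was dim, at 27.9, 58.7 and 42.4 in the vehicle arrays, 142, 126 and 81.9 after DNFB and 130.3, 133 and 162 after BAC. The 6 treated arrays were all above the vehicle arrays, with DNFB replicate 3 the lowest, and the change was 1.31 ± 0.25 (adjusted p = 0.00447). Osmr, the receptor chain for oncostatin M and, with another chain, for IL-31, had signals of 744, 970.1 and 695 in the vehicle arrays, 1736, 1548 and 1530.3 after DNFB and 1351, 1699 and 1845 after BAC. The changes were nearly equal, 0.997 after DNFB and 1.01 after BAC, and the interval of their difference was -0.32 to 0.29. Il6st, the common chain gp130, rose by 0.58 ± 0.10, and by 0.34 with averaged probe sets (adjusted p = 0.148). Lifr, the receptor for Lif, was the 1 gene called lower, with a change of -0.84 ± 0.19 (-1.06 after DNFB and -0.62 after BAC). It missed the threshold with vehicle replicate 1 left out (-0.75, adjusted p = 0.0744) or when probe sets were averaged (-0.51, adjusted p = 0.214), and 2 genes of the list were called lower without DNFB replicate 1 or 2. Il6 and the feedback inhibitor Socs3 also rose but differed by more than 0.5 between the compounds and are given further below.

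Genes of tissue repair and of the matrix formed a further group. In the matrix remodelling and hyaluronan list 16 of 25 genes were called higher (64%) and 0 lower, beside 4.85% and 5.38% of all tested genes. The median was 0.89, and 3 were shared. Adamts9, a secreted protease that cuts proteoglycans, had signals of 147, 186 and 183 in the vehicle arrays, 555, 636 and 596 after DNFB and 796, 735 and 673 after BAC (change 1.85 ± 0.14). Timp1, an inhibitor of matrix metalloproteases, went from 445, 561 and 343 to 2092, 1308 and 1215 after DNFB and 1033, 1551 and 1437 after BAC (change 1.64 ± 0.20). DNFB replicate 1 was the highest for Timp1 and also for Plaur, the urokinase receptor, which rose by 1.58 ± 0.20. Outside the list, Uap1 and Ugdh, which make the sugar nucleotides used for hyaluronan and other glycans, rose by 1.39 ± 0.11 and 1.26 ± 0.15. Uap1 changed by 1.39 after DNFB and 1.39 after BAC, with an interval of the difference from -0.25 to 0.25. Has1, a hyaluronan synthase, rose after both but more after BAC (1.12 after DNFB and 2.33 after BAC, adjusted p of the difference 2.38e-05).

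Growth factor, vessel and junction genes were among the shared rises too. Hbegf, a ligand of the EGF receptor, had signals of 1269, 1117 and 763 in the vehicle arrays, 2747, 2070.2 and 2797 after DNFB and 3014, 2747 and 3221 after BAC (change 1.40 ± 0.16). It was the 1 gene called higher of 10 tested EGF ligands and receptors (10%, beside 4.85% of all tested genes), of which 2 fell (20%, beside 5.38%). Both falls lost their calls without vehicle replicate 1 or 3, and 1 did without vehicle replicate 2 or BAC replicate 2 or 3. Tnfrsf12a, the receptor of the cytokine TWEAK, rose by 1.49 ± 0.14, Pdpn, a membrane glycoprotein of lymphatic vessels and activated keratinocytes, by 1.10 ± 0.11, and Vegfa, the vessel growth factor, by 1.15 ± 0.15. Gja1, which encodes the gap junction protein connexin 43, was the 1 gene called higher of 17 tight and gap junction genes (5.88%, beside 4.85% of all tested genes). Its signals were 1641, 1807 and 1374 in the vehicle arrays, 5635, 4436 and 4832 after DNFB and 4797, 4274 and 4583 after BAC, and the change was 1.56 ± 0.11. Its other probe sets rose less, by 0.79 (adjusted p = 0.0616) to 1.12. Cldn1, Cldn23, Gjb5 and Cgn of that list fell. The calls of Cldn1 and Cldn23 ended in 8 of 19 settings each, among them without each vehicle array in turn and without DNFB replicate 1 or 3, which left 2 lower. Apold1, an endothelial early response gene, went from 413, 382 and 269 to between 1345 and 1895 (change 2.16 ± 0.15). Tm4sf1, a tetraspan protein of endothelium and other cells, rose by 2.06 ± 0.14, Nos3, the endothelial nitric oxide synthase, by 1.30 ± 0.12, and Rasip1, a vascular Ras-interacting protein, by 1.13 ± 0.17. Of 15 endothelial markers 2 (13.3%, beside 4.85% of all tested genes) were called higher (Cdh5 at 0.86 and Selp at 1.42) and 0 lower. Selp lost its call in 10 of 19 settings, among them without each vehicle and each BAC array in turn (adjusted p from 0.069 to 0.192), and Cdh5 with averaged probe sets (0.47, adjusted p = 0.104), where the count was 0. The Selp arrays overlapped between the groups. Their summed signal was 3768 to 4598 in the vehicle arrays, 4918 to 6350 after DNFB and 6473 to 6850 after BAC, and none of the 15 lay below the 40th percentile of every array. The part of this shift in the vessel genes was not tested, and in a bulk sample more or fewer cells of a type and more or less RNA per cell cannot be told apart.

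Genes known from neutrophils were among the shared rises. Clec4d, a C-type lectin receptor of myeloid cells, had signals of 117, 222 and 138 in the vehicle arrays, 808, 575 and 1001 after DNFB and 755, 942 and 1049 after BAC, with vehicle replicate 2 the highest of the vehicle arrays (change 2.34 ± 0.21). Trem1, an amplifying receptor of neutrophils and monocytes, went from 82.4, 99.4 and 102 to 394, 350.5 and 467 after DNFB and 547, 528 and 629 after BAC (change 2.16 ± 0.18). The acute phase protein Hp rose by 1.18 ± 0.19. These stand within a wider move of the marker list, in which 10 of 15 tested neutrophil markers (66.7%) were called higher and 0 lower. Over all tested genes 4.85% were higher and 5.38% lower. The median of the marker list was 1.74. The summed signal of the markers on the array was 4362 to 9488 in the vehicle arrays, 15466 to 26001 after DNFB and 25897 to 35783 after BAC. Camp was below the 40th percentile in all 9 arrays. S100a9, which with S100a8 forms calprotectin, changed by 3.38 ± 0.48, and by 4.27 without vehicle replicate 2, in which its signal was 2633 beside 451 and 352. S100a8 changed by 3.23 ± 0.44, and by 4.03 without that array. S100a9 alone had signals of 4837 to 13216 in the treated arrays, a large part of the summed signal. The part of other cell types in these values was not tested. More neutrophils and more RNA per cell cannot be told apart in a bulk sample. Cyp4f18, a leukotriene-metabolising enzyme of neutrophils, went from 4.23, 8.45 and 7.67 to between 98.6 and 132. Its vehicle values lay below the 40th percentile of their arrays, and its change of 2.49 ± 0.26 was 3.90 with a pseudocount of 1 and 1.31 with 64.

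Several shared rises are genes known from striated muscle, picked after their values were seen. Fbxo32, also known from muscle, was a shared fall. Its other probe sets changed by -0.72 (adjusted p = 0.275 by limma) and -1.50 (adjusted p = 0.0165). Ankrd1, a cardiac and muscle ankyrin repeat protein also induced in wounds, had signals of 111, 115 and 149.7 in the vehicle arrays, 452, 399 and 241 after DNFB and 417, 466 and 574 after BAC (change 1.61 ± 0.21). Klhl40, a sarcomere-stabilising protein, rose by 1.27 ± 0.20, Asb5 by 1.29 ± 0.20, and Nmrk2, a muscle nicotinamide riboside kinase, from 13.1, 11.6 and 9.32 to between 90.8 and 156. The 3 vehicle values of Nmrk2 were below the 40th percentile of their arrays, so the gene was tested through its treated arrays. Its change of 2.25 ± 0.26 was 3.23 with a pseudocount of 1 and 1.25 with 64. Cryab, the small heat shock protein alpha-B crystallin of muscle and other tissues, rose by 1.09 ± 0.14. The 21 skeletal muscle markers had a median of 0.39. Of these 2 (9.52%, beside 4.85% of all tested genes) were called higher (Atp2a1 at 0.64 and Tnnc2 at 0.42) and 0 lower. This count ran from 0 to 11 over the settings. It was 0 without vehicle replicate 1 or 2, any DNFB array or BAC replicate 3, 1 without BAC replicate 2 and 11 without BAC replicate 1. Their summed signal was 58468 to 75991 in the vehicle arrays, 82894 to 103793 after DNFB and 66324 to 99432 after BAC. The BAC and vehicle sums overlapped, and the part of muscle content in these genes was not tested.

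Genes of stress responses and nutrient supply were among the shared rises. In the integrated stress and unfolded protein response list 13 of 24 genes were called higher and 0 lower (8 and 6 higher without vehicle replicates 1 and 3). Over all tested genes 4.85% were called higher and 5.38% lower. Of the 24, 2 were shared. Slc3a2, the heavy chain of amino acid transporters, had signals of 1984, 2027 and 1873 in the vehicle arrays, 4685, 3495 and 4209 after DNFB and 4019, 4586 and 4655 after BAC (change 1.11 ± 0.11). Atf4, the factor that drives amino acid supply genes, rose by 0.997 ± 0.11, just under the 2-fold limit, with 0.99 after DNFB and 1.001 after BAC. Hk2, a hexokinase, was the shared member of 19 hypoxia and glycolysis genes (5 higher, 0 lower) and rose by 1.05 ± 0.13. Azin1, which relieves ornithine decarboxylase from its inhibitor, rose by 1.18 ± 0.12. Odc1, that decarboxylase, had signals of 4242, 5220.2 and 3194 in the vehicle arrays, 3474, 3223 and 2922 after DNFB and 4952, 6432 and 5336 after BAC, and the groups overlapped. Its pooled change of 0.025 ± 0.23 (adjusted p = 0.962) turned to -0.080 after quantile normalization, to -0.024 with median-centred arrays and to -0.16 without vehicle replicate 3. Isg20 and Rtp4, interferon-induced genes, rose by 1.12 ± 0.15 and 1.13 ± 0.20 in a list with 5 of 24 higher and 0 lower. The count was 2 with the replicate block and without vehicle replicate 1 or BAC replicate 2, and 3 without vehicle replicate 2 or 3, DNFB replicate 1 or BAC replicate 3. Cdkn1a, the cyclin-dependent kinase inhibitor p21, rose by 0.70 ± 0.12 (0.78 after DNFB and 0.62 after BAC).

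**Figure D3:**
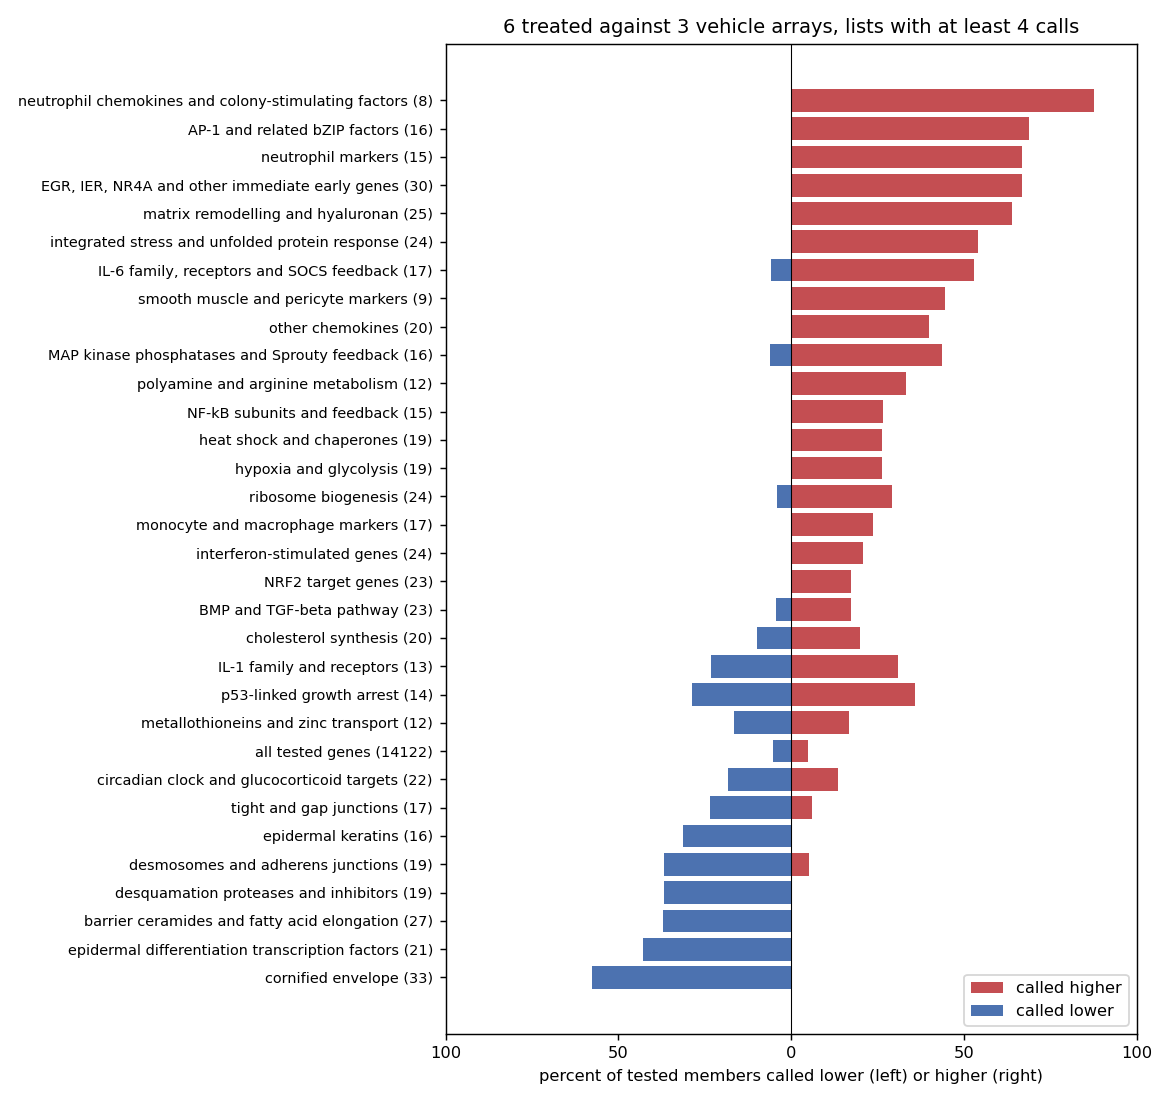
Percent of the tested members of each list called lower (bars to the left) or higher (bars to the right) in 6 treated against 3 vehicle arrays, for the lists with at least 4 calls; the number tested is in brackets. Neutrophil chemokines, AP-1 factors and immediate early genes stand at the top with no calls lower, and the cornified envelope list at the bottom with 19 of 33 lower; all tested genes had 4.85% higher and 5.38% lower.

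Genes known from epidermis and other epithelia were among the largest shared falls. Sema4b, a membrane semaphorin, had signals of 381, 408 and 437 in the vehicle arrays, 185, 106 and 112 after DNFB and 125, 129 and 114 after BAC. DNFB replicate 1 was the highest treated array and still under each vehicle array. The change was -1.57 ± 0.17 (adjusted p = 9.22e-05). Fut2, a fucosyltransferase of epithelial glycans, fell from 344, 546 and 502 to between 95.4 and 212 (change -1.52 ± 0.21). Another probe set of Fut2 changed by -0.80 (adjusted p = 0.249). Gata3, a transcription factor of the epidermis, hair follicle and lymphocytes, had signals of 977, 762 and 1070.1 in the vehicle arrays, 219, 379 and 339 after DNFB and 346, 425 and 256 after BAC. Its change was -1.49 ± 0.19 (adjusted p = 0.000283), with -1.56 after DNFB and -1.42 after BAC. T and NK cell markers, as a check on lymphocytes, had 1 of 9 tested genes higher and 1 lower (11.1% each, beside 4.85% and 5.38% of all tested genes). Without each vehicle array in turn 0 of these markers were lower. Their summed signal was 2185 to 3575 in the vehicle arrays, 2813 to 3725 after DNFB and 2567 to 3645 after BAC, with Cd4 below the 40th percentile in all 9 arrays. The part of these cells in the Gata3 values was not tested. Rnf225 and Rnf227, which encode RING finger proteins, fell from 2173, 2012 and 2449.7 to between 577 and 1052 and from 2229, 2203 and 2282 to between 707 and 1056, changes of -1.47 ± 0.16 and -1.26 ± 0.13. Fgf22, a fibroblast growth factor of hair follicle and skin, was at 341, 336 and 349 in the vehicle arrays, 142, 139 and 147 after DNFB and 125, 138 and 97.8 after BAC (change -1.29 ± 0.16). Its other probe set changed by -0.72 (adjusted p = 0.450).

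The shared falls held 3 receptor genes of the IL-20 and IL-22 cytokines, which act on keratinocytes. Il22ra1, the signalling chain for IL-22, had signals of 223, 220.3 and 239.7 in the vehicle arrays, 46.9, 76.8 and 108 after DNFB and 135, 90.9 and 84.2 after BAC, a change of -1.24 ± 0.24 (adjusted p = 0.00528). Il20ra, a chain of the receptors for IL-19, IL-20 and IL-24, had signals of 327, 219.9 and 330.2 in the vehicle arrays, 123, 127 and 135 after DNFB and 179.6, 76.1 and 129 after BAC, a change of -1.11 ± 0.22 (adjusted p = 0.006). Il22ra2, a soluble receptor that binds IL-22 and blocks it, went from 407, 346 and 359.7 to between 124 and 191 (change -1.27 ± 0.16, adjusted p = 0.000259). As the class requires, the 3 genes did not overlap between treated and vehicle arrays, and their DNFB and BAC changes were within 0.5 of each other. Of the partner chains, Il20rb changed by -0.96 ± 0.18 (adjusted p = 0.00459; -0.72 after DNFB and -1.20 after BAC) and Il10rb by 0.0021 ± 0.14 (adjusted p = 0.995). Il22ra2 and Il20ra are next to each other in the RefSeq gene table. These 5 genes were picked out after their values were seen.

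Genes of cell shedding and of the cornified layer were also among the shared falls. Cdsn, which encodes corneodesmosin, the glue of corneodesmosomes, had signals of 5129, 2968 and 7003 in the vehicle arrays, 1889, 1606 and 1994 after DNFB and 2422, 2439 and 1289.5 after BAC. The vehicle arrays were spread widely, with vehicle replicate 2 the nearest to the treated arrays (change -1.32 ± 0.24, adjusted p = 0.00354). Psors1c2, the neighbour of Cdsn in the RefSeq gene table, fell by 1.08 ± 0.20. Klk10, a kallikrein protease, fell from 397, 421 and 649 to between 147 and 275 (change -1.19 ± 0.20). In the list of desquamation proteases and inhibitors 7 of 19 were called lower (36.8%) and 0 higher, beside 5.38% and 4.85% of all tested genes. Among the 7 were Klk5 at -0.76 ± 0.12, the inhibitor Spink5 at -0.96 ± 0.17 and the cystatin Cst6 at -0.95 ± 0.13. Cpa4, the carboxypeptidase with an AP-1 motif close to its start, had signals of 403, 475 and 471 in the vehicle arrays, 183, 131 and 155 after DNFB and 157, 193 and 135 after BAC (change -1.42 ± 0.15). Exph5, an effector of vesicle transport that keratinocytes need, fell by 1.23 ± 0.18, and Atp12a, a proton pump, from 372, 453 and 348 to between 86.7 and 193. Xkrx, an XK-related membrane protein, fell by 1.25 ± 0.13. Gsdma, the skin gasdermin, fell by 1.05 ± 0.15.

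Keratins and attachment genes fell in part. Of 16 epidermal keratins 5 were called lower (31.25%) and 0 higher, beside 5.38% and 4.85% of all tested genes. Krt24, a keratin of differentiated keratinocytes, was the shared member, at 5695, 5475 and 5429.6 in the vehicle arrays, 3124, 2366 and 2975 after DNFB and 2744, 2489 and 2387 after BAC (change -1.05 ± 0.11). Krt1 fell by 0.79 ± 0.13. Of 19 desmosome and adherens junction genes 7 were lower and 1 higher (0 higher without vehicle replicate 1 or 3), with the desmocollin Dsc1 at -0.91 ± 0.16. Dst, the basal attachment protein dystonin, fell by 1.15 ± 0.18 with BAC replicate 1 the highest treated array. With its probe sets averaged Dst changed by -0.47 (adjusted p = 0.0523), and 2 other probe sets changed by 0.49 and 0.12. Of 9 basal keratinocyte markers 2 were called lower (1 without vehicle replicate 1 or 2), and their summed signal was 28984 to 29582 in the vehicle arrays, 20130 to 23624 after DNFB and 24864 to 28032 after BAC.

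The cornified envelope list moved one way but without shared members. Of its 33 tested genes 19 were called lower (57.6%) and 0 higher, beside 5.38% and 4.85% of all tested genes. The median was -0.80 (-0.97 after DNFB and -0.55 after BAC). Of the 33, 13 differed between the compounds, beside 6.80% of all tested genes. The count was 8 and 7 without vehicle replicates 2 and 3, and 7 to 23 over all the settings tried. Over all tested genes 268 to 737 were called lower with 1 array left out in turn, beside 760 with every array. The genes of the proteins hornerin (Hrnr) and cystatin A (Csta1) fell by like amounts but missed the 2-fold limit. Hrnr changed by -1.05 after DNFB and -0.83 after BAC, and Csta1 by -0.97 after DNFB and -0.88 after BAC. Filaggrin (Flg) changed by -0.88 ± 0.25 (adjusted p = 0.0375), and the call ended in 8 of 19 settings, among them without each vehicle array in turn (adjusted p = 0.0726, 0.072 and 0.207). Loricrin (Lor), the most abundant envelope protein, had signals of 19246, 21979 and 18501 in the vehicle arrays, 19818, 16489 and 18187 after DNFB and 17462, 18659 and 19493 after BAC. The groups overlapped and the change of -0.12 ± 0.094 missed the threshold (adjusted p = 0.498), but it was called after quantile normalization (-0.35, adjusted p = 0.0124). The late cornified envelope genes are a family of similar copies, so their probe sets may share signal. Among them Lce1l changed by -1.80 after DNFB and -0.81 after BAC and Lce3f by -1.32 after DNFB and -1.76 after BAC. Lce3f lost its call without vehicle replicate 2 (-1.09, adjusted p = 0.0578) and Lce1l without vehicle replicate 3 (-1.20, adjusted p = 0.0595).

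**Figure D4:**
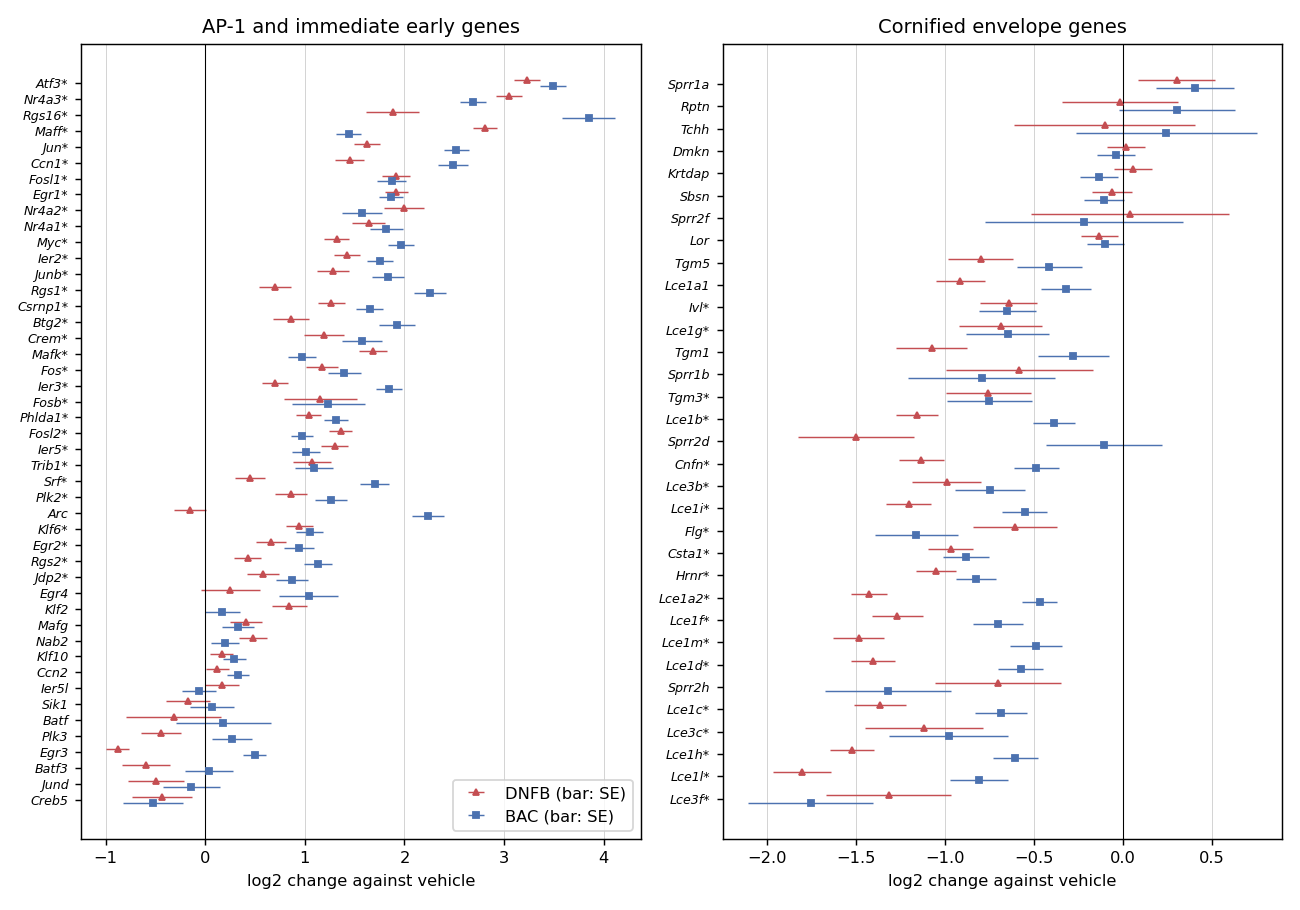
Log2 change against the vehicle after DNFB (red triangles) and BAC (blue squares), with bars of 1 SE, for AP-1 and other immediate early genes (left) and cornified envelope genes (right); a star marks genes called in the pooled comparison. The markers of Fosl1 (1.92 and 1.87) and Egr1 (1.92 and 1.86) nearly coincide, those of Maff and Jun lie apart in opposite order, and most Lce1 genes lie further left after DNFB.

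Lipid and regulatory genes of the epidermis showed the same one-sided count. In the list of barrier ceramides and fatty acid elongation 10 of 27 genes were called lower and 0 higher. Over all tested genes 5.38% were called lower and 4.85% higher. The count for this list was 5, 4 and 2 lower without vehicle replicates 1, 2 and 3, and 0 were shared. Calls lower over all tested genes also dropped, from 760 to between 268 and 737 with 1 array left out in turn. Elovl7, a fatty acid elongase, fell by 1.27 ± 0.25, and more after DNFB (-1.75 after DNFB and -0.80 after BAC). Of 21 transcription factors of epidermal differentiation 9 were lower and 0 higher (5 lower without vehicle replicate 3), with Prdm1, a repressor active in the upper epidermis, at 821, 889 and 855 in the vehicle and between 415 and 572 in the treated arrays (-0.84 after DNFB and -0.83 after BAC). Tfap2c fell by 0.88 ± 0.19 and lost its call without vehicle replicate 3 (adjusted p = 0.0731). In the IL-1 family 4 of 13 genes were higher (2 without each vehicle array in turn) and 3 lower. The 3 that fell are epidermal cytokines, Il18 (-0.43 after DNFB and -0.54 after BAC), Il1f10 (-0.62 after DNFB and -0.62 after BAC) and Il1f8, also called IL-36 beta (-0.80 after DNFB and -0.82 after BAC), whereas Il1b rose (2.51 after DNFB and 4.16 after BAC). The call of Il1f10 ended without each vehicle array in turn (adjusted p from 0.071 to 0.0833).

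A pair of clock-related factors moved in opposite directions. Nfil3, a bZIP repressor that binds the D-box element, rose from 210.4, 229 and 165 to 702, 857 and 990.1 after DNFB and 1261, 1213 and 819 after BAC (change 2.17 ± 0.18, adjusted p = 9.19e-06). Hlf, a bZIP activator of the same element, fell from 946, 638 and 981 to 308, 410.5 and 504 after DNFB and 520.3, 355 and 402 after BAC (change -1.01 ± 0.18, adjusted p = 0.00327). In the circadian clock and glucocorticoid list 3 of 22 genes were called higher (13.6%, beside 4.85% of all tested genes) and 4 lower (18.2%, beside 5.38%). The second count was 1 without vehicle replicate 1 or 3, and 2 without vehicle replicate 2, DNFB replicate 1 or 2 or BAC replicate 2 or 3. Bhlhe40, a clock repressor, rose by 1.41 after DNFB and 2.32 after BAC. Per3 changed by -0.76 ± 0.20, and its call ended without vehicle replicate 1 or 3 (adjusted p = 0.130 and 0.113). Samples were taken 6 h after application, and the labels give no hour of the day.

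Other genes moved the same way after both compounds but differed by more than 0.5, and Ereg fell after DNFB only. Il6, the cytokine interleukin 6, had signals of 157, 133 and 70.5 in the vehicle arrays, 2842, 2058 and 1753 after DNFB and 4834, 5498 and 5488 after BAC. All BAC arrays were above all DNFB arrays, and the changes were 4.07 after DNFB and 5.34 after BAC (adjusted p of the difference 0.00191). Cxcl2, a neutrophil chemokine, was at 476, 319 and 103 in the vehicle arrays, 1038, 1260.0 and 1486 after DNFB and 3235, 4271 and 3669 after BAC, with changes of 2.23 after DNFB and 3.79 after BAC (adjusted p of the difference 0.013). The pooled change of Cxcl2 was 3.01 ± 0.48, and 2.42 without vehicle replicate 3. In its list 7 of 8 neutrophil chemokines and colony-stimulating factors were called higher (87.5%, beside 4.85% of all tested genes). The count was 2 without vehicle replicate 3 and 4 without each of the other vehicle arrays. Calls higher over all tested genes also dropped, from 685 to between 341 and 661 with 1 array left out in turn. Socs3 rose by 2.47 after DNFB and 3.08 after BAC, with an adjusted p of 0.0942 for the difference, and Zfp36, which speeds the decay of cytokine mRNAs, by 1.82 after DNFB and 2.63 after BAC (adjusted p = 0.00465). Within the AP-1 list Jun rose more after BAC (1.62 after DNFB and 2.52 after BAC) and Maff, a small MAF protein, more after DNFB (2.81 after DNFB and 1.44 after BAC). Both differences passed the limma test (adjusted p = 0.000485 and 5.87e-06). Ereg, the growth factor epiregulin, was low after DNFB, at 2562, 2895 and 2581 in the vehicle arrays, 805, 579 and 710.1 after DNFB and 2193, 3319 and 2632 after BAC. The BAC and vehicle arrays overlapped. Its pooled change was -0.96 ± 0.47 (adjusted p = 0.229), with -1.93 after DNFB and 0.00 after BAC, and it was called in the fit with a mean per treatment (adjusted p = 9.09e-05).

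The 2-fold limit cuts through a dense range of values. The shared rises nearest to it were Ptchd4, Slco2b1 and Osmr, at pooled changes of 1.001, 1.004 and 1.004, and the nearest outside were Gfpt2 at 0.998, Klf6 at 0.997 and Atf4 at 0.997. The call of Ptchd4 ended in 7 of 19 settings, among them without vehicle replicate 1 or 3 and BAC replicate 1 or 3, and all 3 of its vehicle values were below the 40th percentile. Slco2b1 changed by 0.24 without BAC replicate 3 (adjusted p = 0.413) and by 0.18 with averaged probe sets (adjusted p = 0.644). On the side of the falls Tenm2 (-1.001) and Hlf (-1.01) were just inside and Trp53inp1 (-0.997) and Pou3f1 (-0.99) just outside. Trp53inp1 lost its call without vehicle replicate 1 (adjusted p = 0.0725), and Tenm2 with averaged probe sets (-0.29, adjusted p = 0.487). With no limit on the size, 450 rises and 630 falls met the other conditions. Other probe sets were examined for the shared genes. For 39 of the shared rises there were 67 other tested probe sets, of which 62 changed in the same direction, 39 were called that way and 0 the other way. For 17 of the shared falls the 27 other probe sets had 22 in the same direction, 11 called and 0 called opposite.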

How the data were processed

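Ear skin RNA was hybridised to 9 Affymetrix arrays, 3 per treatment, with groups and replicate numbers taken from the sample titles. The deposited numbers are linear intensities, 1 signal per probe set and array, made by the authors with MAS5 and the Affymetrix Expression Console, per the submitters' processing notes (versions not given in the sources used here). Platform annotation gave 1 gene to 34945 probe sets, several to 932 and none to 9160, and 64 controls were left out. Each gene was read from its brightest probe set by mean log2 value. Genes that exceeded the 40th percentile in 3 or more arrays (14122 of 18193) were tested on log2(signal + 16) in R 4.3.3 with limma 3.58.1 (lmFit, eBayes with an intensity trend), two-sided, with Benjamini-Hochberg adjustment over all of them and a threshold of 0.05. The pooled fit had one mean for 6 treated and one for 3 vehicle arrays, so the difference between the compounds counted as spread; a second fit had a mean per treatment. The script was tested on simulated data.

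The named genes were the 12 largest shared rises and falls brighter, in their higher group, than the median tested gene, up to 2 shared genes per list, and Atf3, Fos, Egr1, Il6, Socs3, Zfp36, Cxcl2, S100a9, Dusp1, Odc1, Ereg, Lor, Flg and Cdkn1a whatever their values. Other genes were picked with their values in view. The members and the lists were chosen with earlier results of these data known. Lists are described by counts and medians, with no set test. Alternatives changed the pseudocount, filter, scaling, probe set rule, fit, limits and arrays used.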

Additional observations from a re-analysis of the deposited data

Results flagged for a closer look

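In 142 named genes and 2 RNA quality ratios, the highest or lowest of the 6 treated arrays was checked for a gap to its neighbour above Dixon's 95% critical value, as a share of the whole range. The gap was that wide in 10 of the 144 cases. Chance gives about 1 in 20 for 6 values of a single normal group, but these 6 arrays pool 2 compounds. That rate is thus only a rough guide here. DNFB replicate 1 stood apart for Sema4b (0.660), DNFB replicate 2 for Hbegf (0.639), Arid5a (0.672) and Hrnr (0.685), and DNFB replicate 3 for Crem (0.696) and Lif (0.629). BAC replicate 1 stood apart for Dst (0.649), BAC replicate 2 for Rnd1 (0.645), and BAC replicate 3 for Rcan1 (0.703). DNFB replicate 2 had the highest Gapdh 3' to 5' ratio, with a gap of 0.802 of the range. Without DNFB replicate 2, 11 AP-1 factors and 19 immediate early genes were called higher and 16 cornified envelope genes lower, but 12 of 62 list counts moved by over 1.5 times. Calls higher went from 4 to 7 in the NF-kB list, from 4 to 1 among NRF2 targets, from 2 to 0 and 4 to 2 in skeletal and smooth muscle markers, from 2 to 1 in Schwann cell markers and the respiratory chain and from 1 to 0 in the Notch pathway. Calls lower went from 4 to 2 in the clock list, from 1 to 2 in the IL-6 family, from 0 to 1 among mRNA decay factors and from 2 to 1 in cholesterol synthesis and the Notch pathway. List counts also moved by over 1.5 times without other arrays. The skeletal muscle count, for example, also moved without vehicle replicate 1 or 2, DNFB replicate 1 or 3 or any BAC array. Cornified envelope calls lower went from 19 to 7 without vehicle replicate 3.

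The direct limma comparison of DNFB with BAC passed the threshold for 20 of the 142 named genes, beside 6.80% of all tested genes. Some of the 142 were picked with their values in view, so the count depends on that choice. The log2 difference, DNFB minus BAC, was -1.27 for Il6, -0.82 for Zfp36, -1.56 for Cxcl2, -0.96 for Cxcl1, -0.90 for Jun, -0.91 for Bhlhe40, -1.21 for Has1, -1.65 for Il1b and -0.89 for Csf3r, the receptor of the neutrophil growth factor G-CSF. All of these rose after both compounds, and more after BAC. Maff at 1.37, Mafk at 0.71, Zfand5 at 0.49 and Ccnl1 at 0.46 rose more after DNFB, and Rnf19b at -0.45 more after BAC. The difference was -0.94 for Elovl7, -0.99 for Lce1l and -0.51 for Cldn1, which were called lower in the pooled comparison, -1.62 for Selp, -1.93 for Ereg and -0.79 for Odc1.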

How the results depend on the processing

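Of 142 named genes 136 were tested in all 19 settings, and 105 of these had the same direction and side of the threshold in each. The other 6 were not tested in 1 or 2 settings, and 4 of them were the same in those that tested them. Odc1, Batf, Jund and Il10rb, none of which passed the pooled test, changed sign. Odc1 was at -0.080 with quantile normalization, -0.024 with median-centred arrays, -0.093 with averaged probe sets and -0.16 to 0.19 with 1 array left out (negative without vehicle replicate 3 and each BAC array). Il10rb was at -0.047 with median-centred arrays, -0.21 with averaged probe sets and -0.078 to 0.14 with 1 array left out, Jund at 0.064 with averaged probe sets, and Batf at -0.37 to 0.15 with 1 array left out. Of the 91 shared rises 60 to 91 stayed shared (60 with averaged probe sets, 61 with a pseudocount of 64) and 74 to 91 stayed called; of the 44 shared falls 24 to 44 stayed shared (24 with a pseudocount of 64, 32 with quantile normalization or averaged probe sets) and 36 to 44 called. Counts moved more: averaging probe sets gave 452 genes higher, and leaving out the intensity trend gave 470 lower, 1202 called for DNFB against vehicle and 402 for DNFB against BAC. The contrast from the fit with a mean per treatment called 2259 genes, 1066 higher and 1193 lower, since the compounds' difference no longer counts as spread. Shared falls numbered 29 with a pseudocount of 64. With a difference of at most 0.25 there were 50 shared rises and 29 falls, with at most 1 and no interval 178 and 75, with a 1.5-fold limit 289 and 370, and with none 450 and 630. Leaving out 1 array gave 609 to 1387 pooled calls (341 to 661 higher, 268 to 737 lower; 651, 960 and 609 without vehicle replicates 1, 2 and 3), 83 to 101 shared rises, 38 to 72 shared falls (72 without vehicle replicate 2), 1116 to 1543 genes with all treated arrays above and 1397 to 1869 below, 1254 to 1927 calls for DNFB and 1231 to 2149 for BAC against vehicle, 515 to 998 between them, and differences of 0.113 to 0.152 in the actin and 0.044 to 0.147 in the Gapdh ratio. Same-numbered arrays did not deviate together (r from -0.122 to 0.153 in 9 pairs, 1 over 0.1), so the numbers were not taken as pairs; with the replicate block 1050 genes were called (499 higher, 551 lower), with 88 shared rises and 45 shared falls, 1874 and 1939 for the single compounds and 860 between them.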
